A study of Rattus norvegicus with 48 samples.

Results

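The miR-23/27/24 family was followed through 4 kidney structures of the rat, cut out of frozen sections by laser and profiled by small RNA sequencing. The members are the 7 mature miRNAs of the 2 genomic clusters among the 188 mature miRNAs in the authors' table: rno-miR-23a-3p, rno-miR-27a-3p and rno-miR-24-2-5p from cluster a, rno-miR-23b-3p, rno-miR-27b-3p and rno-miR-27b-5p from cluster b, and rno-miR-24-3p, which both clusters make. They were chosen by name and genomic origin, with earlier results of these data known. The authors' table had been filtered for low counts by a rule not given in full in the sources used here. Weakly read arms of the clusters may therefore be absent. The libraries came from 3 untreated male Sprague-Dawley rats aged 6 months, with glomeruli from 2 rats (rats 1 and 3) and collecting duct, thick ascending limb (the salt-reabsorbing part of Henle's loop) and proximal tubule from 3 rats each, which makes 11 libraries. On 8 µm sections, collecting duct was found by immunofluorescence for aquaporin-2, thick ascending limb for Tamm-Horsfall protein and proximal tubule for glutathione S-transferase, while glomeruli were found with a histochemical stain under the microscope, so the staining method and the glomerulus cannot be told apart. All animals were naive and no treatment was compared. A further glomerulus library of rat 3, marked by the submitters as removed, was not analysed here.

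Each cluster is transcribed as 1 precursor from which 3 hairpins are cut, and each hairpin can release a mature miRNA from its 5′ arm (5p) and its 3′ arm (3p). A mature miRNA directs the silencing complex to messenger RNAs mainly through its seed, bases 2 to 8, so miRNAs with the same seed share most of their predicted targets. The family is best known from blood vessels, where miR-23 and miR-27 act in endothelial sprouting, and from fat and muscle, where miR-27 restrains adipocyte formation and miR-23a represses muscle atrophy genes; miR-24 is known for control of the cell cycle and of apoptosis.

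The mature sequences are shown because the comparison of cluster a with cluster b rests on single bases. Capitals mark the seed (bases 2 to 8), and the sequences and positions are those of RefSeq on the GRCr8 assembly, in which all 7 members matched by name.
rno-miR-27b-3p: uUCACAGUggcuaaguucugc
rno-miR-27a-3p: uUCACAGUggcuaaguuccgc
rno-miR-23b-3p: aUCACAUUgccagggauuacc
rno-miR-23a-3p: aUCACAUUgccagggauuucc
rno-miR-24-3p: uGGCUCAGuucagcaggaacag
rno-miR-24-2-5p: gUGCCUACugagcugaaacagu
rno-miR-27b-5p: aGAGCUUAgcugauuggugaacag
The 21 bases of rno-miR-23a-3p and rno-miR-23b-3p differed at 1 position, U19A, with position 1 at the 5′ end and the a form first. The 21 bases of rno-miR-27a-3p and rno-miR-27b-3p also differed at 1 position, C19U. Both changes lay outside the seed, so the paralogs carry 2 shared seeds, UCACAUU for miR-23 and UCACAGU for miR-27. Of the 188 miRNAs of the table, 172 were matched to a sequence by name, and among these no other shared any of the 5 seeds of the family. How reads that end before position 19, or that carry an error there, were assigned between paralogs is not given in the sources used here.

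Cluster b lies on the minus strand at chr17:1818669-1819482, within the span of the gene Aopep, and touches the annotated end of Fancc. Cluster a lies on the minus strand at chr19:40859455-40859843 and overlaps no protein-coding gene of the annotation. rno-miR-24-3p is released from Mir24-1 of cluster b (chr17:1818669-1818736) and from Mir24-2 of cluster a (chr19:40859455-40859562). The 2 hairpins are shown with the mature rno-miR-24-3p in capitals, which is the same run of 22 bases in both and has 1 value in the table.
Mir24-1: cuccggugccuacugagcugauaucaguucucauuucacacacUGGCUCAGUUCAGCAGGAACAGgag
Mir24-2: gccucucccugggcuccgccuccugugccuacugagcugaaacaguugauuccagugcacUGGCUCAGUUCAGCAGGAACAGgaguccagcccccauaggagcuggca
The value of rno-miR-24-3p therefore pools both clusters. Its 5p partner rno-miR-24-2-5p is annotated to Mir24-2 alone and was placed in cluster a. The 5p arm of Mir24-1, rno-miR-24-1-5p, has the same seed in RefSeq and is not among the measured miRNAs. How reads common to both 5p arms were assigned is not given in the sources used here.

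The deposited values are counts per mature miRNA scaled between libraries by the trimmed mean of M values (TMM-normalized counts), and each value here is the mean over the 4 flow cells on which every library was run. The smallest step between values gave 147996 to 1296993 reads per library over the 188 miRNAs, with the glomerulus of rat 3 the shallowest, and the summed normalized value of a library ran from 77457, in the same glomerulus, to 255518. Marker miRNAs were set beside the labels, from lists chosen with earlier results of these data known. No list was specific to collecting duct or thick ascending limb, so those labels were not checked. The proximal tubule miRNAs miR-192-5p and miR-194-5p (2 of 3 listed were measured) summed to 777 to 1424 in glomerulus, 1259 to 2340 in collecting duct and 2181 to 4280 in thick ascending limb, against 21130 to 26370 in proximal tubule. The epithelial miR-200 group (4 of 5 measured) summed to 36.1 to 128 in glomerulus, and to 827 to 1595 in collecting duct, 412 to 792 in thick ascending limb and 429 to 673 in proximal tubule. None of the 3 listed red cell miRNAs is among the measured ones, and the leukocyte list (2 of 4 measured) summed to 78.7 to 117 in glomerulus, 73.0 to 118 in collecting duct, 25.2 to 39.1 in thick ascending limb and 24.1 to 51.6 in proximal tubule.

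The family as a whole took a larger part of the miRNA signal in glomeruli than in any tubule library. The 7 members summed to 8.64% and 9.77% of the total value in the glomeruli of rats 1 and 3. They summed to 4.33%, 3.23% and 2.99% in the collecting ducts of rats 1, 2 and 3, to 3.42%, 2.65% and 3.03% in the thick ascending limbs, and to 1.97%, 2.01% and 1.89% in the proximal tubules. Both glomeruli thus lay above all 9 tubule libraries, and the proximal tubules below all others. Nearly all of this was rno-miR-27b-3p, which alone made up 7.92% and 9.07% of the total in glomeruli.

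**Figure D1:**
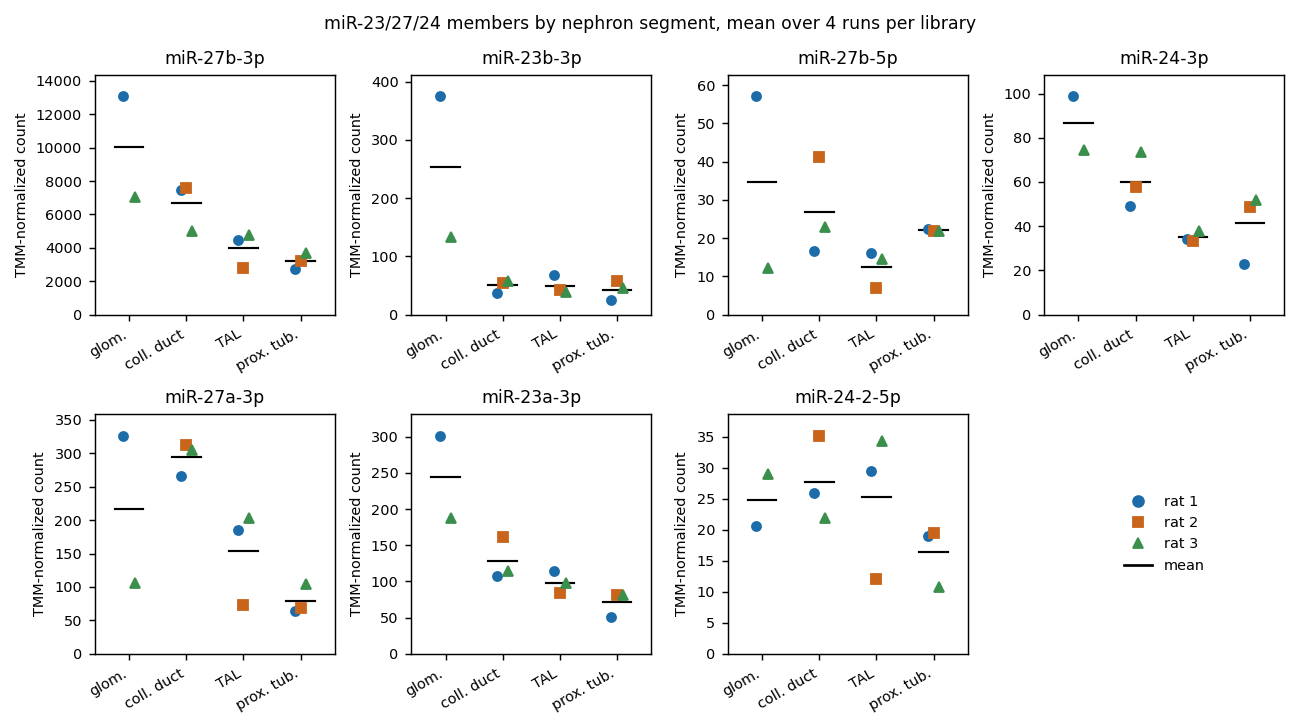
TMM-normalized count (vertical axes, linear and starting at 0) of each member in each library, mean over 4 runs, by segment (glom., glomerulus; coll. duct, collecting duct; TAL, thick ascending limb; prox. tub., proximal tubule); symbols are rats and bars are means. miR-27b-3p, miR-23b-3p, miR-23a-3p, miR-24-3p and miR-27b-5p were highest on average in glomerulus on this scale. miR-27a-3p (mean 295) and miR-24-2-5p were highest on average in collecting duct, and the glomeruli of rats 1 and 3 often stood apart from each other.

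Across the 4 segments, 3 of the 7 members passed a limma F-test with the rat as a block (adjusted p below 0.05 over all 188 miRNAs), where 24.5% of all miRNAs did. They were rno-miR-23b-3p (adjusted p = 0.0159), rno-miR-27a-3p (0.0253) and rno-miR-27b-3p (0.0398). rno-miR-23a-3p had an unadjusted p of 0.0411 and an adjusted p of 0.119. rno-miR-24-3p, rno-miR-27b-5p and rno-miR-24-2-5p had adjusted p of 0.446, 0.574 and 0.871. The 3 members that passed came from both clusters. No member passed without the library of proximal tubule from rat 1, and 1 passed without any 1 of proximal tubule of rat 2, thick ascending limb of rat 1 or the collecting duct of any rat.

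rno-miR-27b-3p, the 3p arm of Mir27b in cluster b, was by far the most abundant member. Its value was 13077 and 7026 in the glomeruli of rats 1 and 3, 7449, 7580 and 5003 in the collecting ducts of rats 1, 2 and 3, 4452, 2817 and 4782 in the thick ascending limbs, and 2726, 3194 and 3659 in the proximal tubules. It ranked 4th of 188 in both glomeruli and in the collecting duct of rat 1, and between 7th and 11th in the other libraries. The means ran in the order glomerulus (10052 ± 4279, SD, n = 2), collecting duct (6677 ± 1451, n = 3), thick ascending limb (4017 ± 1052, n = 3) and proximal tubule (3193 ± 467, n = 3). No neighbours in that order passed the test on the deposited scale. Glomerulus lay above proximal tubule without overlap, by 1.55 ± 0.53 (log2 difference ± SE, 2.94-fold) with an adjusted p of 0.0224 and in 2 of 2 rats. That call was lost without proximal tubule of rat 1, 2 or 3 (1.25, 1.60 and 1.78) or thick ascending limb of rat 1 (1.56), with adjusted p up to 0.201. The glomerulus values also lay above those of thick ascending limb without overlap, yet that difference of 1.24 (95% interval 0.21 to 2.27, adjusted p = 0.132) missed the threshold on the deposited scale. The difference from collecting duct was 0.50 (interval -0.53 to 1.53), with overlapping values on the deposited scale. As a share of each library's total, rno-miR-27b-3p was 7.92% and 9.07% in glomeruli and 2.67% to 4.05% in collecting ducts, without overlap. The difference from collecting duct became 1.37 (limma adjusted p = 0.000136) after rescaling to the same total and 1.135 (0.00138) by the median of ratios. After quantile normalization it was 0.30 (0.372). Collecting duct exceeded proximal tubule by 1.06 in 3 of 3 rats without overlap (interval 0.16 to 1.95, adjusted p = 0.129).

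rno-miR-23b-3p, whose hairpin precedes that of miR-27b in cluster b, was the only member to pass between glomerulus and each tubule segment on the deposited scale. Its value was 375 and 132 in the glomeruli of rats 1 and 3, 37.8, 53.6 and 58.3 in the collecting ducts of rats 1, 2 and 3, 68.1, 42.5 and 38.0 in the thick ascending limbs, and 24.8, 57.3 and 44.7 in the proximal tubules. Both glomeruli lay above all 9 tubule libraries, with the glomerulus of rat 1 well above that of rat 3. It was higher in glomerulus than in proximal tubule by 2.57 ± 0.74 (log2, 5.95-fold, adjusted p = 0.00456), than in thick ascending limb by 2.28 ± 0.74 (4.85-fold, 0.0224) and than in collecting duct by 2.25 ± 0.74 (4.76-fold, 0.0180), each in 2 of 2 rats. Among the 3 tubule segments the means were 49.9 ± 10.7 in collecting duct, 49.5 ± 16.3 in thick ascending limb and 42.2 ± 16.4 in proximal tubule (SD, n = 3 each), and the values overlapped in every pair. Without the glomerulus of rat 1, where the lone glomerulus is assumed to vary like the other groups, none of the 3 differences passed, at 1.73, 1.43 and 1.41 in the same order. The first was also lost without proximal tubule of rat 1 (2.02), the second without proximal tubule of rat 2 (2.19) or thick ascending limb of rat 1, 2 or 3 (2.65, 2.11 and 2.18), and the third without proximal tubule of rat 2 (2.16) or collecting duct of rat 1 (1.92).

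rno-miR-27b-5p, the opposite arm of the same hairpin, was among the least abundant members and passed in no pair of segments. Its value was 57.1 and 12.3 in the glomeruli of rats 1 and 3, 16.7, 41.1 and 23.0 in the collecting ducts, 16.2, 6.89 and 14.4 in the thick ascending limbs, and 22.3, 21.8 and 22.0 in the proximal tubules. The 2 glomeruli lay on either side of the proximal tubules, and the difference between these segments was 0.17 (interval -1.70 to 2.04, adjusted p = 0.925). Thick ascending limb lay below proximal tubule in 3 of 3 rats without overlap, with a difference of -1.03 (interval -2.65 to 0.59) that did not pass. Only 20 to 274 reads stood behind a library's value, and 1 run of thick ascending limb of rat 2 was at 0.

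rno-miR-24-3p, the arm that both clusters release, had a value of 98.7 and 74.2 in the glomeruli of rats 1 and 3, 49.2, 57.5 and 73.7 in the collecting ducts, 34.2, 33.2 and 38.0 in the thick ascending limbs, and 23.0, 48.5 and 52.0 in the proximal tubules. The lower glomerulus and the highest collecting duct, both of rat 3, were nearly level on the deposited scale. As shares of each library's total they were 0.0959% and 0.0394%. Glomerulus exceeded proximal tubule by 1.17 (interval -0.36 to 2.69, adjusted p = 0.318), thick ascending limb by 1.33 (-0.19 to 2.85, 0.308) and collecting duct by 0.56 (-0.97 to 2.08, 0.686), and none of these passed on that scale. After rescaling to the same total they passed (limma adjusted p = 0.00879, 0.0149 and 0.0342). By the median of ratios the difference from collecting duct did not pass (0.0799).

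rno-miR-27a-3p, the cluster a paralog of miR-27b with the same seed, was on average highest in collecting duct on the deposited scale, although as a share of each library's total it averaged 0.167% ± 0.0430 in glomerulus (SD, n = 2) and 0.143% ± 0.0203 in collecting duct (n = 3). Its value was 326 and 106 in the glomeruli of rats 1 and 3, 266, 313 and 305 in the collecting ducts of rats 1, 2 and 3, 184, 73.3 and 203 in the thick ascending limbs, and 64.0, 68.3 and 105 in the proximal tubules. The collecting ducts of the 3 rats were close together, while the 2 glomeruli spanned them and reached down to the highest proximal tubule. Collecting duct was higher than proximal tubule by 1.93 ± 0.54 (3.80-fold, adjusted p = 0.00699) in 3 of 3 rats, without overlap. Collecting duct against thick ascending limb gave 1.08 (interval 0.01 to 2.14, adjusted p = 0.372), higher in 3 of 3 rats. Glomerulus minus collecting duct was -0.83 (interval -2.06 to 0.40, adjusted p = 0.403), with 1 rat in each direction, and 0.04 after rescaling to the same total. The call between collecting duct and proximal tubule was lost without proximal tubule of rat 1 (1.58), proximal tubule of rat 2 (2.06) or collecting duct of rat 2 (1.61), with adjusted p up to 0.153.

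rno-miR-23a-3p, in cluster a beside miR-27a, had a value of 302 and 188 in the glomeruli of rats 1 and 3, 108, 162 and 114 in the collecting ducts, 114, 83.6 and 97.5 in the thick ascending limbs, and 50.9, 80.9 and 81.1 in the proximal tubules. As with its paralog, both glomeruli lay above all 9 tubule libraries. It was higher in glomerulus than in proximal tubule by 1.84 ± 0.66 (3.59-fold, adjusted p = 0.0332) in 2 of 2 rats. That call was lost without proximal tubule of rat 1, 2 or 3 (1.53, 1.90 and 2.06), the glomerulus of rat 1 (1.42), thick ascending limb of rat 1 (1.87) or collecting duct of rat 1 or 2 (1.82 and 1.78), with adjusted p up to 0.188. The difference from thick ascending limb was 1.35 (interval 0.06 to 2.64, adjusted p = 0.185) and that from collecting duct 0.97 (-0.32 to 2.26, 0.352), and neither passed on the deposited scale. Collecting duct and thick ascending limb each exceeded proximal tubule in 3 of 3 rats without overlap, by 0.87 (interval -0.25 to 1.99) and 0.49 (-0.63 to 1.61), which did not pass.

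rno-miR-24-2-5p, the 5p arm of Mir24-2 and taken here as the marker of cluster a for miR-24, was low throughout. Its value was 20.6 and 29.1 in the glomeruli of rats 1 and 3, 26.0, 35.2 and 21.8 in the collecting ducts, 29.4, 12.1 and 34.2 in the thick ascending limbs, and 18.9, 19.4 and 10.8 in the proximal tubules. Glomeruli overlapped collecting duct and thick ascending limb and lay above proximal tubule. The difference between glomerulus and proximal tubule was 0.55 (interval -1.27 to 2.37, adjusted p = 0.726). Between 13 and 253 reads stood behind a library's value.

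Set out by pair, the members' calls went in 1 direction and were read against the share of all miRNAs called. Between glomerulus and proximal tubule, 3 of 7 members passed, all higher in glomerulus (rno-miR-23a-3p, rno-miR-23b-3p and rno-miR-27b-3p), where 17.6% of the 188 miRNAs passed, 7 higher and 26 lower in glomerulus. The median log2 difference was 1.17 over the 7 members and -0.77 over all 188. Between glomerulus and thick ascending limb 1 member passed (rno-miR-23b-3p) against 11.2% of all miRNAs, with medians of 1.24 and -0.36; without the replicate block 2 members passed. Between glomerulus and collecting duct 1 passed (rno-miR-23b-3p) against 14.9%, with medians of 0.50 and -0.61. Between collecting duct and proximal tubule 1 passed (rno-miR-27a-3p) against 10.1%, with medians of 0.71 and -0.16. No member passed between thick ascending limb and proximal tubule, where 7.98% of all miRNAs did, or between collecting duct and thick ascending limb, where 2.13% did; 0 and 1 members had an unadjusted p below 0.05 there.

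**Figure D2:**
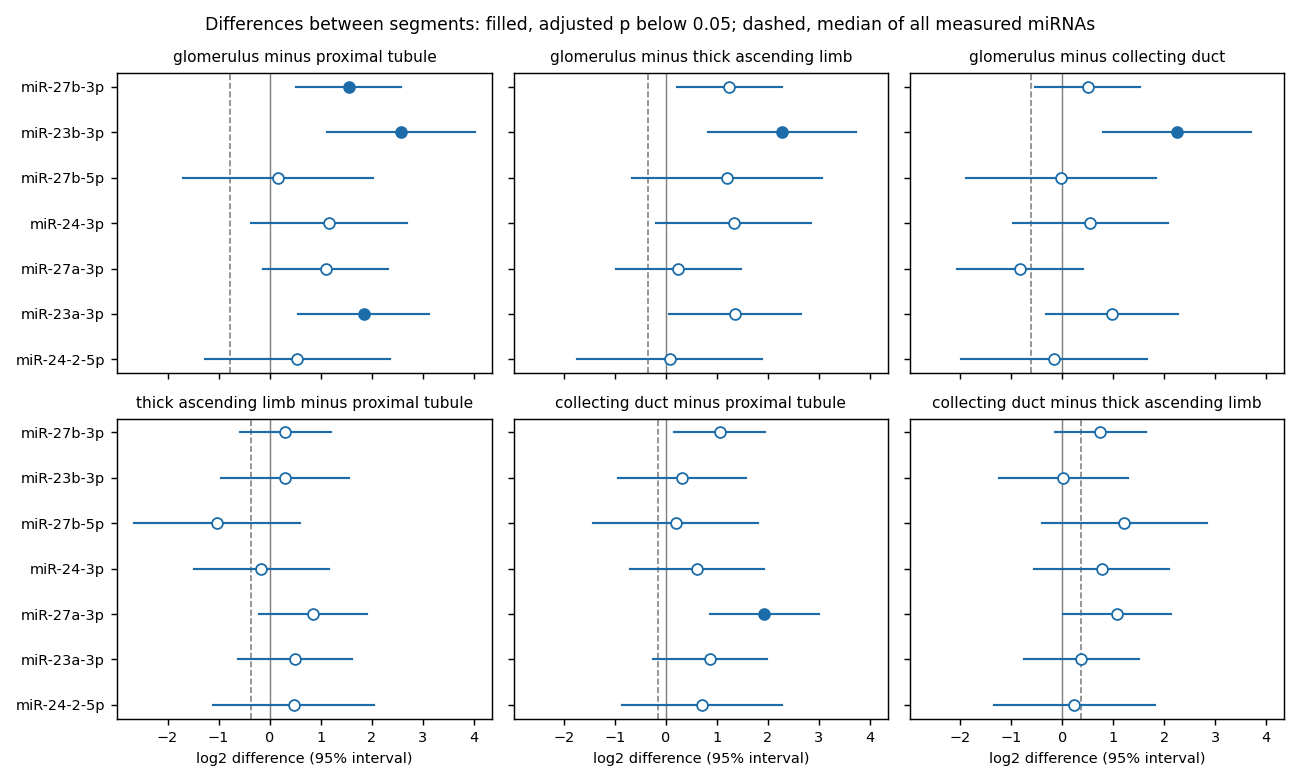
Log2 difference of each member (horizontal axis) in the 6 pairs of segments, with its 95% interval from limma; filled points have an adjusted p below 0.05 over 188 miRNAs, the solid line is at 0 and the dashed line at the median of all 188 miRNAs. Filled points appear for 3 members between glomerulus and proximal tubule, for miR-23b-3p in all 3 glomerulus panels and for miR-27a-3p between collecting duct and proximal tubule.

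Most of the 188 miRNAs were lower in glomerulus than in proximal tubule on the deposited scale, and the scale matters for how many members pass. Rescaling shifted the median of all miRNAs in glomerulus minus proximal tubule by 0.53 (same total per library) to 0.81 (quantile normalization). The calls then split into 21 higher and 29 lower with the same total, and 19 higher and 21 lower with quantile normalization. Under each of 3 other scalings (same total, median of ratios and quantile), 5 members passed in that pair, all higher in glomerulus, with rno-miR-24-3p and rno-miR-27a-3p added. Against thick ascending limb, rno-miR-23a-3p, rno-miR-23b-3p, rno-miR-24-3p and rno-miR-27b-3p passed under each, where 17% to 23.9% of all miRNAs did. Against collecting duct, rno-miR-23a-3p and rno-miR-23b-3p passed under each, where 23.4% to 26.6% did. There rno-miR-27b-3p missed under quantile and rno-miR-24-3p under median of ratios. Relative to the median of all miRNAs, rno-miR-23b-3p lay 3.34 above it as deposited and 3.04 to 3.47 above it under the other scalings. rno-miR-23a-3p lay 2.61 above it (2.53 to 2.74) and rno-miR-27b-3p 2.32 above it (1.42 to 2.46). rno-miR-27a-3p in collecting duct minus proximal tubule lay 2.09 above the median (1.80 to 2.10). As a share of each library's total, rno-miR-23a-3p was 0.183% and 0.243% in glomeruli, against 0.0342% to 0.0798% in the 9 tubule libraries, so that rat 3 had the larger share although rat 1 had the larger deposited value.

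The clusters were next compared within libraries, where normalization cancels. rno-miR-23b-3p made up 55.4% and 41.3% of miR-23 (23a-3p plus 23b-3p) in the glomeruli of rats 1 and 3, 26.0%, 24.9% and 33.8% in the collecting ducts of rats 1, 2 and 3, 37.4%, 33.7% and 28.0% in the thick ascending limbs, and 32.7%, 41.5% and 35.5% in the proximal tubules. The glomerulus of rat 1 was the 1 library in which the b form exceeded the a form. On the log2 scale the ratio was 0.98 higher in glomerulus than in the tubule segments, in 2 of 2 rats. An exact permutation test of an F statistic, with segment labels permuted within rats over 3456 arrangements, gave p = 0.0729 (0.146 adjusted over the 4 ratios tested), so the difference among segments did not pass.

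For miR-27 the b form dominated everywhere. rno-miR-27a-3p was 2.44% and 1.49% of miR-27 (27a-3p plus 27b-3p) in the glomeruli of rats 1 and 3, 3.45%, 3.96% and 5.74% in the collecting ducts, 3.98%, 2.54% and 4.07% in the thick ascending limbs, and 2.30%, 2.09% and 2.79% in the proximal tubules. All collecting ducts lay above all glomeruli and proximal tubules in the a form's share. The log2 ratio of 27b-3p over 27a-3p was 0.87 ± 0.25 (SD, n = 3 rats) lower in collecting duct than in proximal tubule, in 3 of 3 rats, where 3 pairs allow no two-sided p below 0.25. The ratio was 0.93 higher in glomerulus than in the tubule segments, and the glomerulus lay above all of its own rat's tubule segments in 1 of 2 rats. Among the 4 segments the exact permutation test gave p = 0.0330, which did not hold after adjustment over the 4 ratios (0.132).

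The ratio of the miR-24 pair, whose 3p value pools both loci, and that of the 2 arms of Mir27b did not pass either. rno-miR-24-2-5p was 17.2% and 28.1% of miR-24 (24-2-5p plus 24-3p) in the glomeruli of rats 1 and 3, and 17.2% to 47.4% over the 9 tubule libraries. Its log2 ratio to rno-miR-24-3p was 0.87 lower in glomerulus than in the tubule segments (exact permutation p = 0.568, 0.568 adjusted), and was 0.021 higher without the glomerulus of rat 1. rno-miR-27b-5p was 0.435% and 0.174% of the 2 arms of Mir27b in the glomeruli of rats 1 and 3, 0.224%, 0.539% and 0.458% in the collecting ducts, 0.362%, 0.244% and 0.300% in the thick ascending limbs, and 0.812%, 0.677% and 0.597% in the proximal tubules. The 3 proximal tubules held a higher 5p share than the other 8 libraries, with overlap among the other segments. The exact permutation test over segments gave p = 0.177 (0.236 adjusted).

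**Figure D3:**
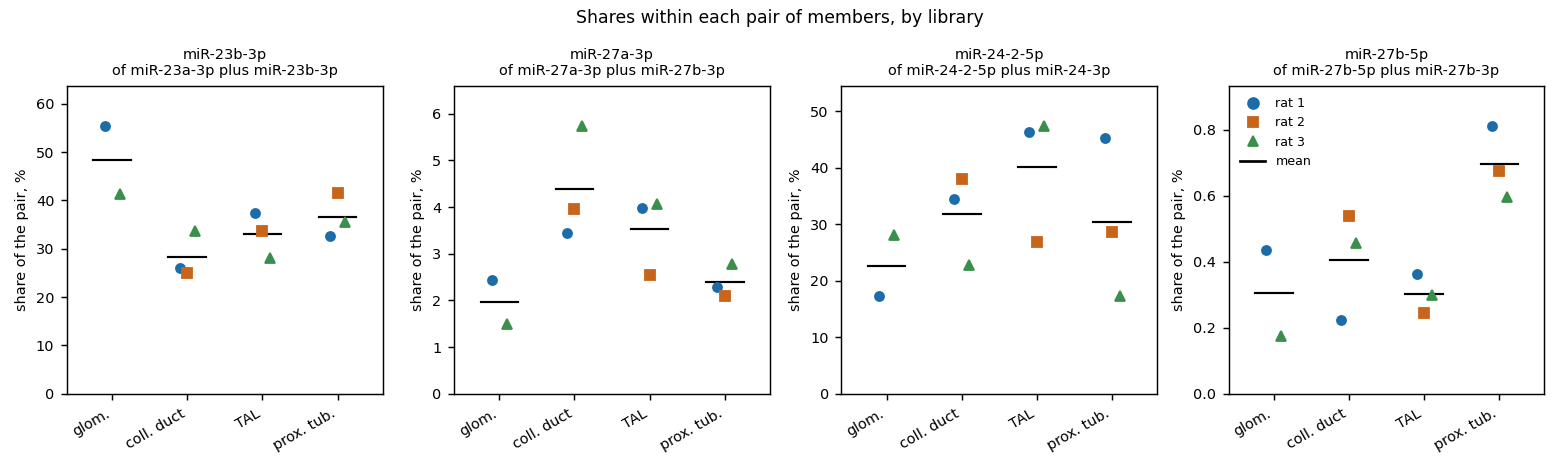
Share of the first named member in the sum of the pair (vertical axes, percent, starting at 0) in each library, by segment; symbols are rats and bars are means. The miR-23b-3p share was 41.3% and 55.4% in glomeruli, the miR-27a-3p share was above 3.4% in all 3 collecting ducts, and the miR-27b-5p share was highest in the 3 proximal tubules.

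The ratios between members of 1 cluster, which come from 1 precursor, varied among libraries. rno-miR-27b-3p was 34.9 and 53.1 times rno-miR-23b-3p in the glomeruli of rats 1 and 3, against 55.8 to 197 times in the 9 tubule libraries, with the highest ratios in the collecting ducts of rats 1 and 2. rno-miR-27a-3p was 1.08 and 0.564 times rno-miR-23a-3p in the glomeruli of rats 1 and 3, 2.47, 1.94 and 2.67 times in the collecting ducts of rats 1, 2 and 3, 1.62, 0.876 and 2.08 times in the thick ascending limbs, and 1.26, 0.845 and 1.30 times in the proximal tubules. The thick ascending limbs overlapped each other segment, and the proximal tubules overlapped the glomeruli. These ratios were described and not tested, and ligation and amplification of each sequence bear on their absolute size.

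The segment profiles, taken as the 4 segment means on the log2 scale centred on their mean, show which members vary alike. The closest pair was rno-miR-23a-3p and rno-miR-27b-3p, which come from different clusters, with a root mean square difference of 0.15. The farthest was rno-miR-23b-3p and rno-miR-27a-3p, at 1.02. The paralogs stood at 0.46 (miR-23) and 0.47 (miR-27). Among the 62 other miRNAs whose mean reached 100, the nearest to rno-miR-27b-3p were rno-miR-126a-5p (0.23) and rno-miR-126a-3p (0.26), and the same 2 were nearest to rno-miR-23a-3p (0.24 and 0.25). The nearest to rno-miR-23b-3p were rno-miR-351-5p (0.40) and rno-miR-126a-3p (0.41), and to rno-miR-24-3p rno-miR-143-3p (0.20) and rno-miR-126a-3p (0.23). rno-miR-27a-3p had rno-miR-30a-5p (0.39) and rno-miR-30e-5p (0.48) as its nearest. These distances are over 4 segment means of the same 11 libraries and are descriptions.

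**Figure D4:**
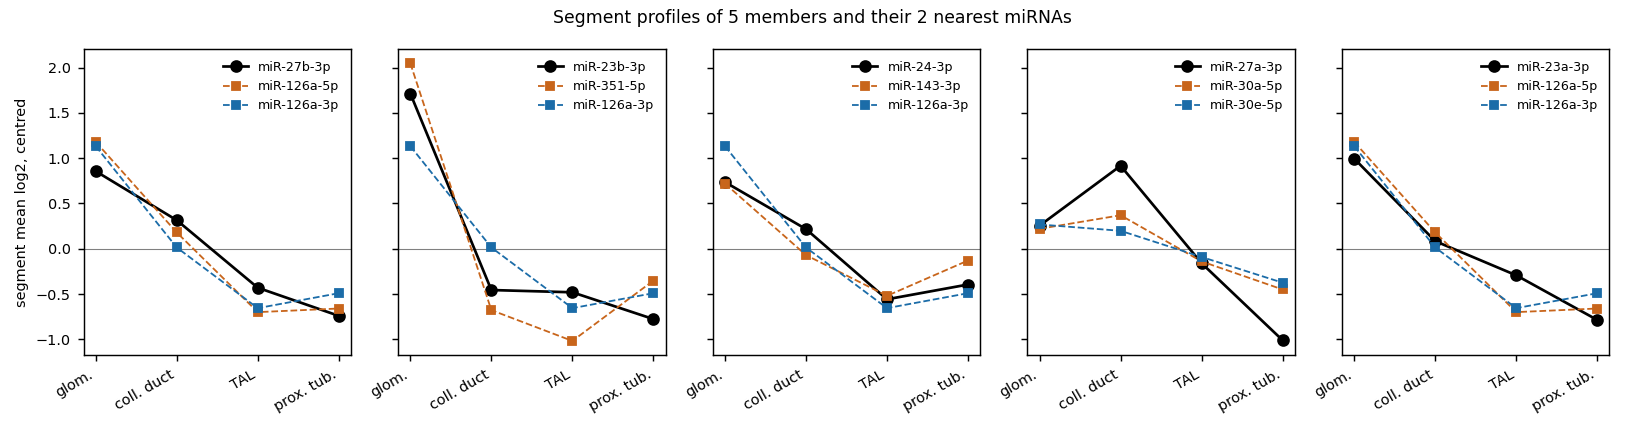
Mean log2(value + 1) of each segment, centred on the mean of the 4 segments (vertical axis), for 5 members (black) and the 2 miRNAs nearest to each (colours), over the 4 segments. 4 members peak in glomerulus as does miR-126a, while miR-27a-3p peaks in collecting duct on this scale.

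miR-126a is carried by endothelial cells, and miR-143 and miR-145 by smooth muscle, pericytes and mesangial cells. rno-miR-126a-5p was higher in glomerulus than in proximal tubule by 1.84 (log2, adjusted p = 0.00426) and than in thick ascending limb by 1.88 (0.00408). For rno-miR-126a-3p these differences were 1.61 (0.0445) and 1.78 (0.0309). Against collecting duct neither arm passed, with 0.99 (adjusted p = 0.193) for the 5p arm and 1.11 (0.212) for the 3p arm. rno-miR-143-3p and rno-miR-145-5p passed in no pair, with glomerulus minus proximal tubule at 0.84 (adjusted p = 0.286) and 1.29 (0.347). The endothelial list (3 of 4 measured) summed to 4299 to 6316 in glomerulus, 1982 to 3230 in collecting duct, 1189 to 1651 in thick ascending limb and 1249 to 1825 in proximal tubule. Nearly all of these sums was miR-126a, and rno-miR-221-3p of the same list ran otherwise: it was 26.1 and 0.483 in the glomeruli of rats 1 and 3, 47.1, 60.0 and 47.1 in the collecting ducts, 18.4, 31.0 and 37.8 in the thick ascending limbs, and 0, 14.3 and 24.2 in the proximal tubules. Its difference of glomerulus minus collecting duct was -2.87 (adjusted p = 0.0258). The list of mesangium, smooth muscle and pericytes (2 of 4 measured) summed to 10380 to 16390 in glomerulus, 6635 to 8080 in collecting duct, 4781 to 6094 in thick ascending limb and 6119 to 8034 in proximal tubule. The mesenchymal miR-199a pair (2 of 3 measured) summed to 13.0 to 72.3 in glomerulus and 69.3 to 172 in collecting duct. It summed to 54.7 to 155 in thick ascending limb and 76.7 to 130 in proximal tubule. Of this pair, rno-miR-199a-3p was lower in glomerulus than in collecting duct (log2 difference -2.86, adjusted p = 0.00119). Glomerulus minus thick ascending limb (-2.54, adjusted p = 0.00576) and glomerulus minus proximal tubule (-2.65, 0.00323) also passed for it. The other arm, rno-miR-199a-5p, passed in no pair, with glomerulus minus proximal tubule at 0.11 (adjusted p = 0.953). No measured marker was at 0 in all libraries of a segment. The part of cell composition in the members' differences was not tested, and in captured tissue more cells of a type and more RNA per cell cannot be told apart.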

How the data were processed

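Small RNA libraries (TruSeq, Illumina HiSeq, 50 bp single-end reads, per the labels' protocols) were processed by the authors with Partek 6.0, Bowtie2 2.2.5 and Bowtie 1.0.0 on rn6, per the submitters' processing notes, which give no role or order. The deposited values (unit signal) are TMM-normalized counts per mature miRNA and run, per the table. They are not raw counts, so no count model was fitted. Low values were whole multiples of 1 step per run (88.5% to 99.0% of values up to 30 reads within 0.03 read), from which depth was read, taking 1 step as 1 read.

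log2(value + 1) was averaged over the 4 runs of a library, which are repeat runs and not replicates. limma 3.58.1 (R 4.3.3) fitted segment and rat to all 188 miRNAs with a variance trend, Benjamini-Hochberg adjusted over 188, threshold 0.05. Residual degrees of freedom were 5 and the prior's were infinite, so intervals rest on the fitted trend. Fold changes are on the log2(value + 1) scale and understate low miRNAs. Replicate numbers are the rats, which pair the libraries by design. Deviations of same-rat libraries correlated at a median of 0.0807 over 15 pairs (-0.173 to 0.336, 11 above 0). The consensus correlation within rats from limma was -0.158, so these values show little likeness within a rat. The 4 ratios were tested by exact permutation within rats (Python 3.11.15). Named miRNAs are the 7 members, seed sharers, the 2 nearest profiles and listed markers. Members, lists and tests were chosen with earlier results of these data known. Scripts were tested on simulated data. The width of the intervals comes from the trend over all 188 miRNAs. It does not measure a member's own spread among the 3 rats (2 for glomerulus).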

Additional observations from a re-analysis of the deposited data

How the results depend on the processing

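The counts of members passing the test rest on few libraries and on the scale. Given in the order all 4 segments together, glomerulus minus proximal tubule, glomerulus minus thick ascending limb, glomerulus minus collecting duct, thick ascending limb minus proximal tubule, collecting duct minus proximal tubule and collecting duct minus thick ascending limb, the reported counts were 3, 3, 1, 1, 0, 1 and 0 of 7. Rescaling by the median of ratios gave 5, 5, 4, 3, 3, 3 and 0, rescaling to the same total 5, 5, 4, 4, 2, 2 and 0, and quantile normalization 5, 5, 4, 3, 2, 2 and 0. The calls among all 188 miRNAs rose as well. For all 4 segments together they went from 46 to 67, 70 and 56, in the same order of scalings. Between glomerulus and proximal tubule they went from 33 to 51, 50 and 40, and between collecting duct and proximal tubule from 19 to 41, 38 and 37. The cause was not tested. Dropping the variance trend gave 0, 1, 0, 0, 0, 0 and 0, with 36 of all 188 miRNAs called for the 4 segments together. Leaving out single libraries in turn gave 0 to 4, 0 to 4, 0 to 3, 0 to 1, 0, 0 to 2 and 0 to 1.

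Without the replicate block, or with the rat as a random replicate block, 2 members passed between glomerulus and thick ascending limb; the block changed no other count by more than 1.5 times. Array weights, which gave each glomerulus library a weight of 0.248, left 0 members in the 3 glomerulus pairs, 1 between thick ascending limb and proximal tubule and 2 between collecting duct and proximal tubule. Among all 188 miRNAs the calls in the glomerulus pairs fell from 33, 21 and 28 to 15, 13 and 16. Those in the named tubule pairs rose from 15 to 43 and from 19 to 42. Keeping only miRNAs whose mean reached 100 left out rno-miR-23b-3p and so gave 0 in glomerulus against thick ascending limb and collecting duct. Flow cell D alone gave 0 over all segments and 0 in glomerulus against proximal tubule and thick ascending limb. Among all 188 miRNAs the calls fell from 46 to 28 over all segments and from 33 to 18 in glomerulus against proximal tubule. That flow cell was shallower, with 15771 reads in the glomerulus of rat 3 against 41064 to 47868 on the others. The tubule segments alone gave 2 between collecting duct and proximal tubule and 1 between collecting duct and thick ascending limb. Among all 188 miRNAs the calls in these pairs rose from 19 to 41 and from 4 to 26.

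The called log2 differences kept their direction under every alternative run. Their ranges without single libraries were 1.42 to 2.27 for rno-miR-23a-3p, 1.73 to 3.42 for rno-miR-23b-3p and 1.11 to 2.00 for rno-miR-27b-3p in glomerulus minus proximal tubule. The ratio of 23b-3p over 23a-3p kept its direction, at 0.56 to 1.40 without single libraries, and that of 27b-3p over 27a-3p ran from 0.39 to 1.46 and passed at 1.06 without collecting duct of rat 1 (adjusted p = 0.037). The same difference for 24-2-5p over 24-3p ran from -1.75 to 0.021, positive without the glomerulus of rat 1. For 27b-5p over 27b-3p it ran from -1.36 to 0.057, positive without the glomerulus of rat 3. Depth limits rno-miR-27b-5p and rno-miR-24-2-5p, with as few as 20 and 13 reads in a library.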
